A study of Mus musculus with 36 samples.

Results

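Gene expression in mouse hearts early in embryonic life was compared with that shortly before birth. The early group held 9 arrays of hearts from E10.5, E11.5 and E12.5 embryos, and the late group 9 arrays from E17.5, E18.5 and E19.5, with 3 arrays a stage. They are 18 of the 36 arrays of a series that also holds the stages in between and young and old adults. All hearts came from OF1 mice, an outbred strain, and carried no engineered allele or treatment, so that the groups differ in age by design. In the early group 7 arrays were of mixed sex, 1 female and 1 male, whereas the late group held 3 of each; a mixed replicate holds hearts of both sexes. The arrays of a stage are biological replicates per the study's methods, and those of E10.5 and E11.5 are all of mixed sex. The whole heart was used, so each value averages over muscle, vessels, valves, covering layers and the blood inside, and fewer cells of a type cannot be told apart from less RNA per cell.

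Between these ages the mouse heart turns from a looped tube with unfinished chambers into an organ ready for life outside the uterus. Its muscle cells divide quickly at first, when the inner cushions that give rise to valves and septa are swollen with hyaluronan-rich matrix. Later the cells divide less, their contractile units gain order, coronary vessels spread through the wall, and the mitochondria are readied for burning fat. Blood changes in parallel, because the first red cells, made in the yolk sac, carry embryonic globins and are replaced by cells from the liver with adult globins.

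Each array reads 45101 probe sets, which are groups of short probes for 1 transcript, as log2 intensities. The 6 stage means were fitted with limma on the 18 arrays, and the mean of the 3 late stages minus that of the 3 early stages was tested for every probe set. Each SE and p thus reflects the spread of arrays within a stage, not the differences among the stages pooled. To be called, a gene needed a probe set that met 3 limits: a p under 1e-05 after Benjamini-Hochberg adjustment, more than 4-fold change (2 on the log2 scale) in either direction, and a stage mean over 5 in any of the 6 stages. Of 20701 genes, 137 were called higher in late hearts (0.662%) and 221 lower (1.07%), and 0 genes had probe sets called in both directions. The limits on size and level decide these counts, since an adjusted p under 0.05 was reached by 70.7% of genes. Values of single genes below come from 1 probe set, the one with the highest mean, and are given as the median of 9 arrays with the lowest and highest in brackets, followed by the log2 difference, late minus early, ± SE from limma. Read this way, 128 genes were called higher (0.618%) and 146 lower (0.705%), together 1.32% of genes, and for 267 of these 274 the early and late arrays did not overlap, compared with 19.9% of all genes. The genes were chosen by size and p on the same arrays, so their lack of overlap is no separate support for the calls. The median difference was 2.51 among the 128 genes and −2.33 among the 146. Among the 128 genes, 78 had an early mean of 5 or less, and 76 of the 146 had a late mean of 5 or less. Genes of a list that are named beyond the rule given with the methods were chosen after their values were seen. Counts within the lists below stand beside 0.618% of all genes called higher, 0.705% called lower and 19.9% without overlap. List medians stand beside 0.15 over all genes and −0.21 over the 10661 genes above the limit on level. Of those 10661, 2955 were higher and 5137 lower with an adjusted p under 0.05.

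**Figure D1:**
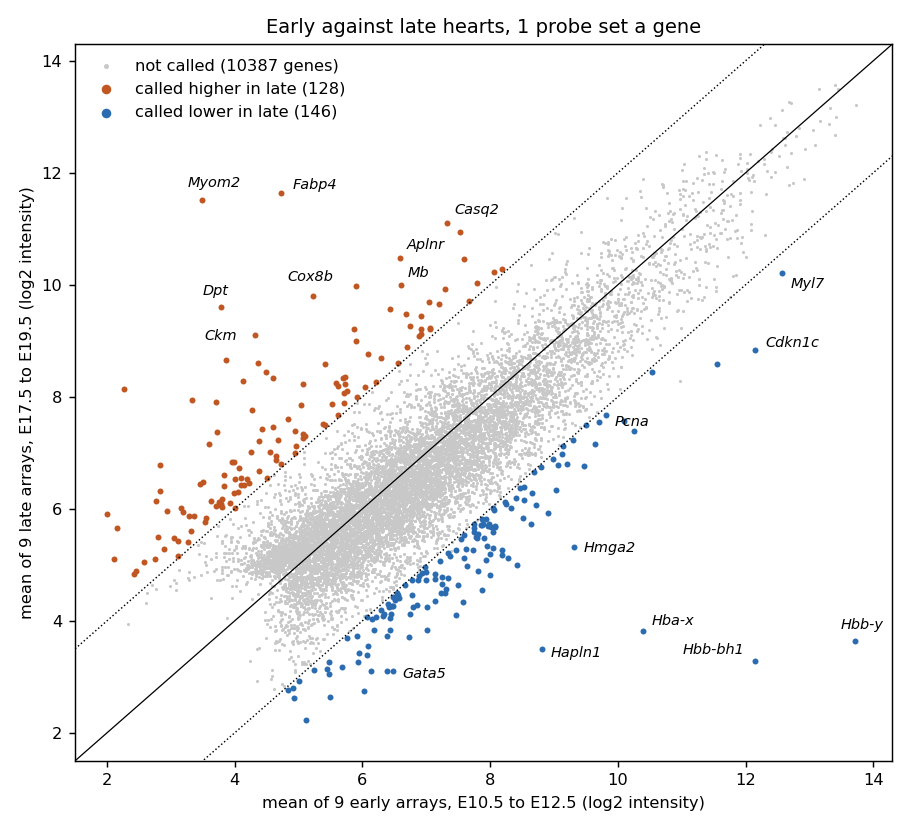
Mean log2 intensity of each gene on the 9 early arrays (horizontal axis) and the 9 late arrays (vertical axis) for the genes with a mean above 5 in at least 1 of the 6 stages. Dotted lines mark 4-fold differences; 128 genes called higher lie above the band and 146 called lower lie below it, with Hbb-y, Hbb-bh1, Myom2 and Fabp4 farthest from the diagonal.

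Markers of heart muscle were high in both groups, as the heart labels say. Myl2, the ventricular regulatory myosin light chain, averaged 13.40 early and 13.57 late, and Tnnt2, cardiac troponin T, 12.46 and 12.86 (log2 intensity). The extraction text of the sample labels names liver, in contrast to the study's methods. Of 12 liver genes 0 passed the limit on level: the mean over the list ranged from 2.99 to 3.21 on early and 3.29 to 3.66 on late arrays, with Alb, albumin, at 3.39 and 3.70.

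Control transcripts that are added to each sample also differed between the groups. The bacterial hybridization controls (18 probe sets) ranged from 9.68 to 10.58 on the early arrays and from 10.72 to 12.01 on the late ones, and the poly-A controls (27 probe sets) from 5.49 to 6.60 and from 6.76 to 8.20. Array medians ranged from 4.0 to 4.06 and from 4.09 to 4.20; no detection calls were used, so that a level near or below these medians cannot be told from background, and a difference that starts or ends there is one of intensities and may understate the change. No early array overlapped a late array in any of the 3 measures (two-sided exact permutation test, n = 9 and 9, p = 4.11e-05 for each, the smallest this design can give). The median difference was 0.25 over the 10040 genes below the limit on level, −0.21 over the 10661 above it, and 0.15 over all genes. With each array centred on the median of its expressed probe sets, the median over all genes moved to 0.42, and the calls to 189 higher and 113 lower, that is from 38.3% to 62.6% higher. After quantile renormalization they were 157 and 165 (48.8% higher). The part of the controls in the differences was not tested apart from a fit with the hybridization control level as a covariate, in which 224 genes were called and 50 of the 69 called genes under the naming rule kept their call. As that level did not overlap between the groups, the fit rests on its spread within stages and cannot tell it apart from age. The titles of all late arrays carry a prefix that no early title has, and whether that marks a batch cannot be told apart from age.

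**Figure D2:**
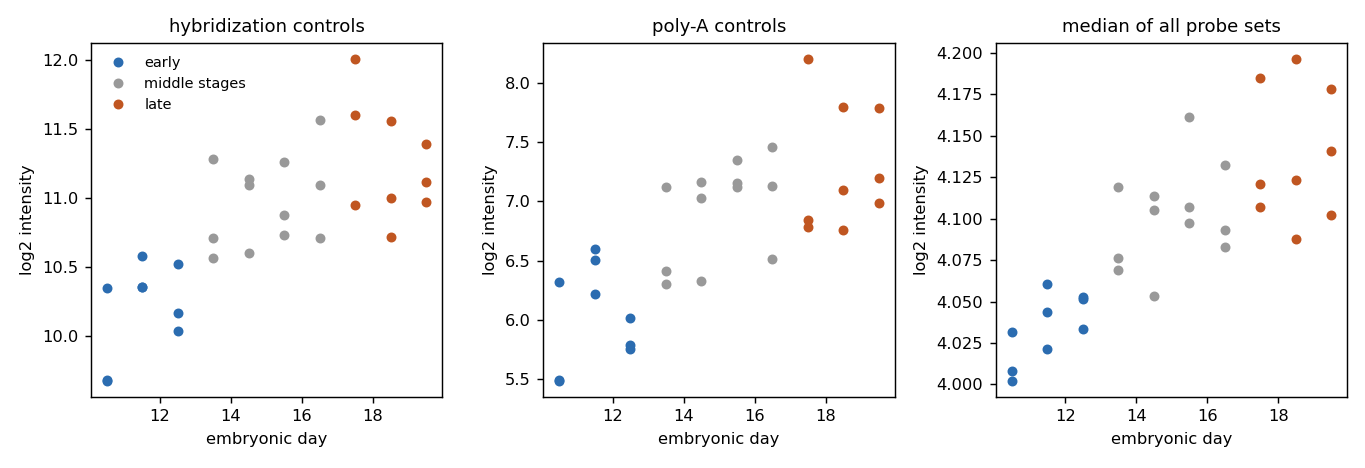
Mean log2 intensity of the hybridization controls, of the poly-A controls and the median of all probe sets on each of the 30 embryonic arrays, by embryonic day. Early arrays (blue) lie below late arrays (orange) in each panel, and the middle stages (gray) overlap with both.

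Embryonic globins had the largest measured decreases. Hbb-y, the epsilon-like globin of yolk sac red cells, had a median of 13.76 (13.39 to 13.84) on early arrays and of 3.47 (3.01 to 4.85) on late arrays, a difference of −10.08 ± 0.19 on the log2 scale (adjusted p = 1.26e-17, limma). The lowest early array was far above the highest late one. For Hbb-bh1, its beta-like companion, the early median was 12.53 (10.92 to 13.23) and the late median 3.25 (3.00 to 3.62), a difference of −8.87 ± 0.10. Hba-x, the zeta-like alpha globin, dropped from a median of 10.55 (9.16 to 11.39) to 3.73 (3.63 to 4.10), a difference of −6.57 ± 0.12. All 3 globins lay near background on all late arrays, and all 3 were named by a rule that asked for groups without overlap. The middle stages, which the test did not use, set them apart in time: Hbb-bh1 had reached 8.78 at E13.5 and 3.97 at E15.5 (means of 3 arrays), when Hbb-y still averaged 13.63 and 10.49. Hbb-y reached 7.98 at E16.5 and 3.66 at E17.5.

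Few other red cell genes were called. Of 15 erythroid genes other than globins 2 were called lower and 0 higher, with a median of −0.55. These were Slc4a1, the band 3 anion exchanger (−2.74 ± 0.26; 1 of its other probe sets had the opposite sign), and Hemgn, a nuclear protein of red cell precursors (−2.88 ± 0.19). Hemgn had a median of 6.29 (2.08 to 7.47) on early arrays and of 2.22 (1.79 to 3.03) on late ones. These ranges overlap, and Hemgn averaged 7.12 at E10.5 and 2.21 at E12.5; without the E10.5 arrays its difference was −1.88 and it was not called, nor was it when stage was left unmodelled or treated as a random block. Of the adult globins, Hba-a1, Hba-a2 and Hbb-b2 were measured, of which 1 passed the limit on level and 0 were called. The probe sets shared by several adult globins carry no gene in the annotation and were not analysed here.

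**Figure D3:**
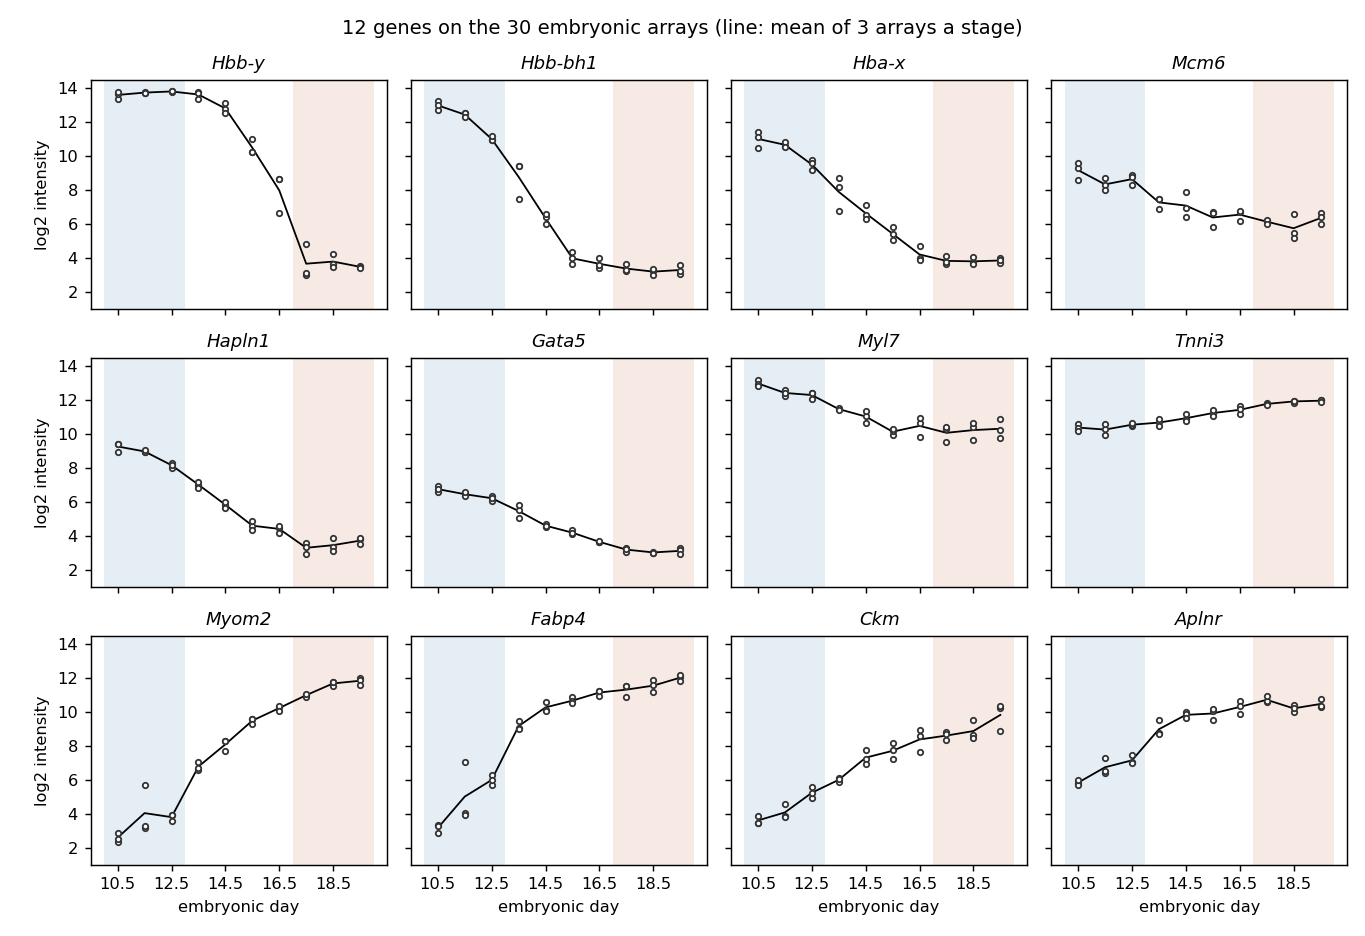
Log2 intensity of 12 genes on each of the 30 embryonic arrays (circles) with the mean of the 3 arrays of a stage (line), by embryonic day. The early group is shaded blue and the late group orange; Hbb-bh1 falls ahead of Hbb-y, and Myom2 and Fabp4 rise most steeply between E12.5 and E13.5.

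Genes of DNA replication fell together. In a list of 39 measured members, all above the limit on level, the median difference was −1.01. The median was 0.15 over all genes and −0.21 over the 10661 above that limit. Of the list 3 were called lower (0.705% of all genes) and 0 higher. An adjusted p under 0.05 and lower values were found for 36 of the 39 and for 5137 of the 10661. The groups did not overlap in 25 members, beside 19.9% of all genes. Mcm6, a subunit of the helicase that opens DNA at replication forks, had a median of 8.73 (7.99 to 9.60) on early and of 6.18 (5.19 to 6.62) on late arrays, a difference of −2.64 ± 0.18 (adjusted p = 1.11e-09, limma). Mcm3, of the same helicase, had a median of 8.50 (8.07 to 9.10) and of 6.12 (5.42 to 6.83), a difference of −2.37 ± 0.15 (1 of its 5 probe sets had the opposite sign). Pcna, the sliding clamp of DNA polymerase, had a median of 9.70 (8.99 to 10.79) and of 7.59 (7.19 to 8.26), a difference of −2.13 ± 0.15. In each of these genes every early array was above every late array, and the E10.5 arrays had the highest stage mean. Pcna was not called without E10.5 (−1.83), after centring (−1.86) or after quantile renormalization (−1.84). With the hybridization control level as a covariate none of the 3 was called (Mcm6 −1.65, Mcm3 −1.48 and Pcna −1.30).

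Mitotic genes fell as well, though 0 passed 4-fold. The list of 35, of which 34 passed the limit on level, had a median of −0.99, and 32 had an adjusted p under 0.05 and lower values. Top2a, the topoisomerase that untangles chromosomes, had a median of 9.79 (9.53 to 10.27) and of 8.34 (7.56 to 9.05), a difference of −1.49 ± 0.11 (1 other probe set had the opposite sign). Cdk1, the kinase that starts mitosis, had a median of 8.66 (8.14 to 9.13) and of 7.21 (6.81 to 8.09), a difference of −1.28 ± 0.13. The groups did not overlap in either gene, and the late values still lay well above background. Foxm1, a transcription factor of mitotic genes, was the member with the highest difference, at 0.25. The lists for chromatin and DNA methylation (19 genes, median −0.99) and ribosome biogenesis (17 genes, median −0.83) also lay below the median of genes above the limit on level (−0.21). Each had 0 genes called.

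The promoters of the replication and mitosis lists were searched for short motifs. RefSeq promoters (GRCm38.p6, 250 bases before to 50 after each start) were found for 31 of 39 replication and 30 of 35 mitosis genes. The former share is too small for a check of the whole list, which is void, so its counts describe the 31 genes alone. The letters TTTNNCGC on either strand, a core shared by many sites of E2F, the transcription factor family of the S phase, stood in 14 of 31 replication genes (45.2%) and in 2 of 30 mitosis genes (6.67%), beside 1199 of the 14452 measured genes with a promoter (8.30%) and 5.17% of all 32851 promoters in the table. TTTGAA on either strand, the core of the cell cycle homology region known from promoters of mitotic genes, stood in 22 of 30 mitosis genes (73.3%) and 4 of 31 replication genes (12.9%), beside 15.6% of measured genes and 17.9% of all promoters. The motifs cannot match at the same first letter. A match is only a match of letters, and both motifs were chosen with the lists' results known. The windows below belong to the 5 genes of each list with the lowest differences among those with a match, shown as the matched genes with the strongest decreases; they are written along the gene's strand with the matching letters in capitals, which read as the reverse complement in Cdc6, Ube2c and Kif11.
Mcm6, TTTNNCGC 47 bases before the start, chr1:128359737-128359760, minus strand: tggacgggTTTGGCGCgaagtagc
Mcm3, TTTNNCGC 38 bases after the start, chr1:20820263-20820282, minus strand: tgggaagtTTTGGCGCcaag
Cdc6, TTTNNCGC 138 bases before the start, chr11:98908005-98908028, plus strand: ggtggagaGCGGGAAAtcgcctgg
Uhrf1, TTTNNCGC 56 bases before the start, chr17:56303273-56303296, plus strand: ccacttgcTTTCTCGCttcccgcc
Mcm5, TTTNNCGC 153 bases before the start, chr8:75109348-75109371, plus strand: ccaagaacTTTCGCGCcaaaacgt
Ube2c, TTTGAA 29 bases before the start, chr2:164769892-164769913, plus strand: ggttgcaaTTCAAAcgcgggcg
Racgap1, TTTGAA 5 bases after the start, chr15:99651638-99651659, minus strand: tgcgtgatTTTGAAccggatct
Plk1, TTTGAA 30 bases after the start, chr7:122159457-122159478, plus strand: gcgccgcgTTTGAAttcgggga
Kif11, TTTGAA 19 bases before the start, chr19:37376355-37376376, plus strand: ctccatttTTCAAAattgaggc
Top2a, TTTGAA 179 bases before the start, chr11:99024355-99024376, minus strand: tggtccatTTTGAAgattctcc

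Fetal growth genes were among the largest decreases. Hmga2, a chromatin protein of proliferating embryonic tissues, had a median of 9.41 (8.62 to 9.82) on early and of 5.29 (4.85 to 5.81) on late arrays, a 16.0-fold fall or a difference of −4.0 ± 0.09 (adjusted p = 5.19e-16, limma). Cdkn1c, an imprinted inhibitor of cyclin-dependent kinases, had a median of 12.24 (11.81 to 12.38) and of 8.95 (8.32 to 9.33), a difference of −3.32 ± 0.13. Both genes were named by a rule that asked for groups without overlap, and the inhibitor fell in the same direction as the genes of division. In the list of 22 oncofetal and imprinted genes that holds them, 2 were called lower and 0 higher, the median was −1.07, and Igf2, the fetal insulin-like growth factor, stood at −1.18 without being called. Igf2bp1, an RNA-binding protein of fetal tissue, had a median of 7.66 (7.42 to 8.45) and of 7.42 (7.14 to 8.23), a difference of −0.25 ± 0.13 (adjusted p = 0.0927), so its groups overlapped, and the sign turned under both other scalings; its other 3 probe sets were all called lower (−2.43, −2.30 and −2.54). In the G1 phase list (19 genes, median −0.34), the called genes were Mycn, a growth-promoting transcription factor (−2.17 ± 0.19; the other 2 probe sets had the opposite sign), and Cdk4, the kinase of cyclin D (−2.0 ± 0.11). Cdk4 lies at the limit: it was not called in 10 of 18 fits that each left out 1 array (−2.0 to −1.94), nor under either scaling (−1.69 and −1.73), and Mycn was not called under either scaling (−1.94 and −1.90). Of 14 cell cycle inhibitors and pocket proteins, Cdkn1c was the 1 gene called (median −0.29, and 0.0097 after quantile renormalization).

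Some transcription factors of early heart building fell. Gata5, a zinc finger factor of endocardial and early muscle cells, had a median of 6.44 (6.07 to 6.94) on early arrays and of 3.07 (2.92 to 3.28) on late ones, a difference of −3.37 ± 0.08 (adjusted p = 3.57e-16, limma). All its late arrays lay near background. Of 33 core and chamber factors, all above the limit on level, 2 were called lower (0.705% of all genes) and 0 higher. Their median was −0.54, beside −0.21 over all genes above that limit. The groups did not overlap in 13 lower and 2 higher members, beside 19.9% of all genes in either direction. Nkx2-5, a founding factor of cardiac muscle, was not called (−0.79 ± 0.10), although its ranges of 8.14 (7.89 to 8.32) and of 7.31 (6.84 to 7.79) did not overlap.

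Of 22 factors of the cushion mesenchyme 4 were called lower and 0 higher (median −0.64). Twist1, which keeps mesenchymal cells of the early valves immature, had a median of 7.59 (6.99 to 7.87) and of 4.44 (3.89 to 4.63), a difference of −3.22 ± 0.11. Sox11, a SOX factor of outflow tract and neural crest cells, had a median of 8.91 (8.63 to 9.15) and of 6.11 (5.07 to 6.80), a difference of −2.99 ± 0.21, and Id2, an inhibitor of basic helix-loop-helix factors, of 10.24 (9.98 to 10.45) and of 7.24 (6.24 to 8.24), a difference of −2.88 ± 0.19. None of these ranges overlapped, and for Sox11 and Id2 the late arrays spread wider than the early ones. The other called member was Prrx2, a homeobox factor (−2.11), which was not called after centring (−1.84) or without E10.5 (−1.93). With the hybridization control level as a covariate Sox11 (−1.75), Id2 (−1.63) and Prrx2 (−1.84) were not called. Among 43 genes of BMP, TGF-beta, Wnt, Notch and FGF signalling 3 were called lower and 0 higher (median −0.67): Wnt5a, a noncanonical Wnt ligand of the outflow tract (−3.01 ± 0.10), Bmp5, a BMP ligand of the early myocardium (−2.29 ± 0.10), and Sfrp1, a secreted Wnt binder (−2.17 ± 0.20). Bmp5 was not called without E10.5 (−1.92) or Sfrp1 without E12.5 (−1.94), and Sfrp1 was not called under either scaling. Of 16 retinoic acid genes 0 were called (with an adjusted p under 0.05, 7 were higher and 8 lower); the median was −0.10, and 0.17 after centring.

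Genes of the extracellular matrix were called in both directions. In the list of 36 proteoglycans, elastic fibre and other matrix genes 9 were called higher and 5 lower, the most of any list, with a median of 0.21. Hapln1, the link protein that fixes versican to hyaluronan in the cushions, had a median of 8.95 (8.01 to 9.43) on early and of 3.51 (2.92 to 3.90) on late arrays, a difference of −5.32 ± 0.12 (adjusted p = 1.63e-16, limma). Versican itself, Vcan, stood at −2.97 and Has2, the synthase of hyaluronan, at −2.79; Fbln1 (−2.10) and Fn1, fibronectin (−2.09), made up the called decreases. For Vcan 3 of 8 probe sets had the opposite sign, and for Fbln1 1 of 3. After centring neither Fbln1 (−1.83) nor Fn1 (−1.82) was called, nor was Fn1 after quantile renormalization (−1.81) or without array 3 of E19.5 (−1.97), or Fbln1 without E10.5 (−1.82). Dpt, dermatopontin, a collagen-binding protein, rose from a median of 3.13 (2.23 to 5.44) to 9.77 (8.60 to 10.05), a difference of 5.82 ± 0.19. Aspn, asporin, a small leucine-rich proteoglycan, rose from a median of 3.36 (1.84 to 5.00) to 8.24 (6.24 to 8.91), a difference of 4.62 ± 0.28. Dpt and Aspn were named by a rule that asked for groups without overlap, and their early arrays spread over more than 3 log2 units in each. Small leucine-rich proteoglycans of the same family as Aspn, Ogn (3.73) and Dcn (2.86), were also called higher, as were Timp4, an inhibitor of metalloproteinases (3.51), Sparcl1 (2.78), Mgp, a calcification inhibitor (2.63), Tnxb (2.50) and Eln, elastin (2.19). Without E10.5 Eln (1.16) and Mgp (1.68) were not called, nor were they when stage was left unmodelled or treated as a random block. Eln was also not called with sex label as a covariate (1.88) or without E19.5 (1.86). In the list 8 higher members had groups without overlap, beside 9 called higher, so not every called rise was separated.

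Collagens divided in the same manner, 3 called higher and 3 lower of 21 (median 0.58, and 0.20 with all probe sets of a gene averaged). Col2a1, the cartilage collagen, which early cushions also make, had a median of 6.87 (6.32 to 7.79) and of 3.84 (3.34 to 4.19), a difference of −3.17 ± 0.13. Col13a1, a membrane-bound collagen, had a median of 6.98 (6.80 to 7.14) and of 4.72 (4.40 to 4.90), a difference of −2.28 ± 0.07, and Col9a1 stood at −2.15. On the rising side, Col6a1 of the microfibrils around muscle cells had a median of 7.12 (5.81 to 7.74) and of 9.14 (8.89 to 9.54), a difference of 2.29 ± 0.11, joined by Col6a2 (2.18) and Col1a1 of fibrillar collagen I (2.16). None of the 3 ranges overlapped. Without E10.5 Col6a1 (1.89), Col6a2 (1.93) and Col1a1 (1.56) were not called, nor was Col9a1 after centring (−1.88) or quantile renormalization (−1.86).

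In the contractile apparatus few genes passed 4-fold, but 1 of them had the largest measured rise of the called genes. Myom2, M-protein, which links thick filaments in the M-band of fast and adult-type sarcomeres, rose from a median of 3.29 (2.37 to 5.70) on early to 11.62 (10.89 to 12.03) on late arrays, a difference of 8.03 ± 0.24 (adjusted p = 1.80e-14, limma). Myom2 was named by a rule that asked for groups without overlap, and among its early arrays 1 of E11.5 was highest. Myl7, the atrial regulatory light chain that the early ventricle also makes, fell from a median of 12.42 (12.09 to 13.17) to 10.28 (9.51 to 10.89), a difference of −2.36 ± 0.16, and its groups did not overlap. With the hybridization control level as a covariate it was not called (−1.53). Of 14 thick filament and M-band genes 2 were called higher and 1 lower (median 0.35). Myl4, the atrial essential light chain, missed the limit at −1.98 ± 0.12.

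Isoform pairs moved by less than the limit. Tnni3, cardiac troponin I, had a median of 10.47 (9.92 to 10.63) and of 11.91 (11.74 to 12.01), a difference of 1.49 ± 0.09 (adjusted p = 1.23e-10), whereas Tnni1, the slow skeletal form that comes first, had a median of 10.25 (9.65 to 11.08) and of 9.55 (8.88 to 10.43), a difference of −0.66 ± 0.19 (adjusted p = 0.00688). Tnni3 was separated between groups and Tnni1 was not. Acta1, skeletal alpha-actin, stood at −1.94 ± 0.20 and Actc1, cardiac alpha-actin, at −0.72 ± 0.11. Myh7, the beta myosin heavy chain of the fetal ventricle, had a median of 13.44 (13.34 to 13.55) and of 13.53 (12.89 to 13.76), a difference of 0.06 ± 0.08 (adjusted p = 0.561), with overlapping groups and a sign that turned with sex label as a covariate. Nppa, the atrial natriuretic peptide, had a median of 11.80 (11.18 to 12.20) and of 10.74 (9.64 to 11.94), a difference of −0.90 ± 0.20 (adjusted p = 0.00103), again with overlap. Of 24 thin filament and Z-disc genes 0 were called (median 0.19; 10 higher with an adjusted p under 0.05). The alpha myosin heavy chain was not analysed here. Nrap, a protein of growing myofibrils and intercalated discs, rose from a median of 5.76 (4.93 to 6.02) to 8.20 (7.96 to 8.60), a difference of 2.66 ± 0.08, and was the 1 gene called of 15 in its list.

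A few genes of calcium and potassium handling rose. Casq2, calsequestrin, which binds calcium inside the sarcoplasmic reticulum, rose from a median of 7.15 (6.24 to 8.28) on early to 11.21 (10.41 to 11.37) on late arrays, or 13.7-fold, a difference of 3.77 ± 0.13 (adjusted p = 9.15e-14, limma). Cacna1g, a T-type calcium channel, rose from a median of 4.77 (3.47 to 5.24) to 6.89 (6.50 to 7.27), a difference of 2.23 ± 0.14. Kcnip2, the subunit that shapes the transient outward potassium current, rose from a median of 3.55 (3.17 to 3.95) to 7.16 (6.75 to 7.54), a difference of 3.56 ± 0.10. None of these ranges overlapped. Of 23 calcium handling genes 2 were called higher (median 0.41), and of 28 potassium, sodium and pacemaker channels 1 was (median 0.41). Sarcoplasmic reticulum genes below the limit included Ryr2, the release channel (0.72), Atp2a2, the calcium pump (0.66), Trdn, triadin (1.73), and Sln, sarcolipin (1.85), while Slc8a1, the sodium-calcium exchanger, stood at −1.03. Cacna1g was not called without E10.5, where it fell just short of the limit (2.0).

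**Figure D4:**
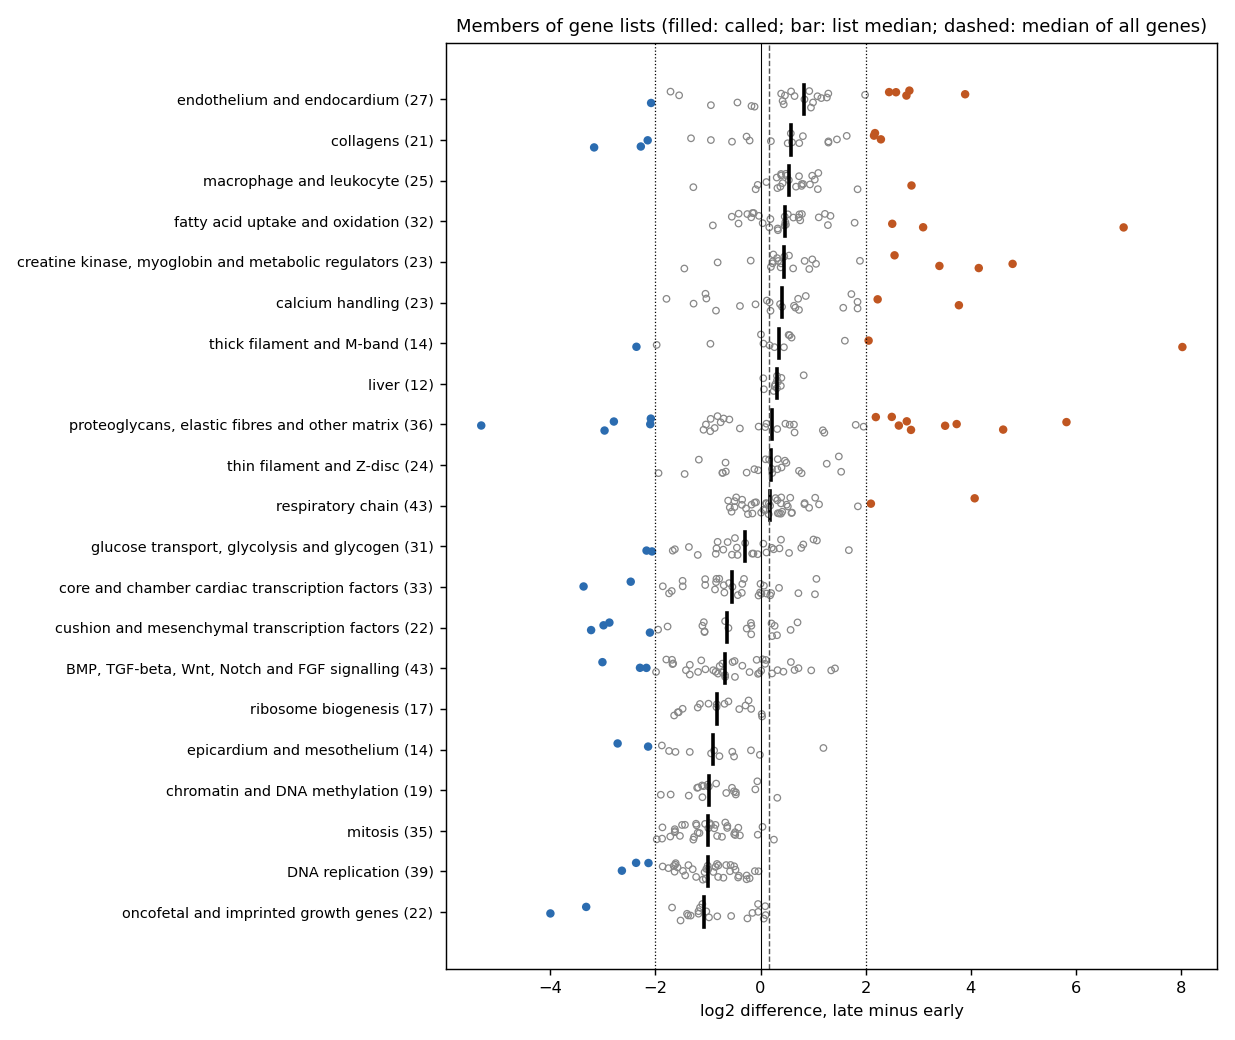
Log2 difference, late minus early, of each measured member of 21 gene lists (horizontal axis), with the number of members in brackets. Filled points are called genes, bars are list medians, the dashed line is the median of all genes (0.15) and dotted lines mark 4-fold; nearly all replication and mitosis genes lie left of it, while muscle, fat oxidation and matrix lists carry single genes far to the right.

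Genes of fatty acid supply rose. Fabp4, a fatty acid carrier of fat cells and capillary endothelium, rose from a median of 4.04 (2.87 to 7.07) on early to 11.61 (10.89 to 12.16) on late arrays, a difference of 6.91 ± 0.30 (adjusted p = 3.15e-12, limma). Cd36, the fatty acid uptake receptor, rose from a median of 6.02 (4.94 to 6.20) to 8.94 (7.87 to 10.14), a difference of 3.09 ± 0.18, and Acsl1, which couples fatty acids to coenzyme A, from a median of 6.63 (6.25 to 7.41) to 9.40 (8.48 to 9.86), a difference of 2.51 ± 0.12. The groups did not overlap in any of them, which the rule that named Fabp4 asked for. They were the 3 called of 32 genes of fatty acid uptake and oxidation; 0 were called lower, the median was 0.47, and enzymes of the oxidation spiral itself were not called, among them Acadvl (1.28), Acadl (1.11), Acadm (0.17) and Hadha (−0.13). Of 8 adipocyte markers 1 passed the limit on level and 0 were called (mean over the list 2.93 to 3.15 early and 3.41 to 3.73 late). On the glucose side, 2 of 31 genes were called lower and 0 higher (median −0.29): Slc2a3, a high-affinity glucose transporter (−2.17 ± 0.08; the other 3 probe sets included 2 of opposite sign), and Pgam1, a glycolytic mutase (−2.07 ± 0.15). Neither was called under either scaling, without E10.5 (−1.97 and −1.89) or without E19.5 (−1.89 and −1.87), nor was Pgam1 without array 3 of E17.5 (−1.99) or of E19.5 (−1.97). Slc2a4, the insulin-responsive transporter, stood at 1.68 and Slc2a1, the fetal transporter, at −1.67. Of 21 genes of the citrate cycle and pyruvate dehydrogenase 0 were called; their median was −0.08, which turned to 0.18 under both other scalings.

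Phosphate transfer, oxygen storage and muscle forms of cytochrome oxidase rose. Ckm, the muscle creatine kinase, rose from a median of 3.88 (3.48 to 5.57) to 8.81 (8.33 to 10.35), a difference of 4.80 ± 0.20. Ckmt2, the mitochondrial creatine kinase of muscle, rose from a median of 4.09 (3.77 to 4.45) to 8.62 (5.46 to 9.58), a difference of 4.15 ± 0.36, and Mb, myoglobin, 10.6-fold from 6.65 (5.38 to 7.42) to 9.82 (9.30 to 10.99), a difference of 3.40 ± 0.18. Late arrays exceeded all early arrays in each, which the rule that named Ckm and Ckmt2 asked for. Within the late group Ckmt2 averaged 7.53 at E17.5 and 9.11 at E19.5. At E17.5 array 3 was far below the others for Ckmt2 (5.46, beside 8.74 and 8.38), and without it, an alternative chosen after seeing the data, the mean was 8.56. Of the 23 genes in this list 4 were called higher and 0 lower (median 0.45). In the respiratory chain 2 of 43 were called, both of them muscle-specific subunits of cytochrome oxidase. Cox8b rose 16.9-fold from a median of 5.81 (4.85 to 6.85) to 10.27 (8.30 to 10.52), a difference of 4.07 ± 0.25, and Cox7a1 from 8.14 (7.41 to 8.61) to 10.51 (8.64 to 10.82), a difference of 2.10 ± 0.23. Their counterparts in other tissues, Cox8a (−0.62) and Cox7a2 (−0.24), were not called, and the list median was 0.18. Cox7a1 was not called without array 2 of E17.5 (1.96), with sex label as a covariate (1.79), or in 4 of 6 fits that each left out a stage (1.95 to 2.11).

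Endothelial genes were called mostly higher. Aplnr, the receptor for apelin on endothelial cells, rose 14.9-fold, from a median of 6.54 (5.68 to 7.45) on early to 10.39 (10.04 to 10.96) on late arrays, a difference of 3.89 ± 0.12 (adjusted p = 2.37e-14, limma). Of its ligands, Apela, the embryonic one, fell from a median of 6.40 (5.51 to 6.77) to 3.11 (2.74 to 3.65), a difference of −3.27 ± 0.13, and Apln stood at 0.84 without being called. Receptor and embryonic ligand thus moved in opposite directions. The groups did not overlap for Aplnr, while Apela was named by a rule that asked for no overlap. Cldn5, the tight junction claudin of endothelium, rose from a median of 4.15 (3.91 to 5.12) to 6.99 (6.75 to 8.19), a difference of 2.83 ± 0.12, and Sox17, a factor of arterial endothelium, from a median of 4.89 (4.28 to 5.18) to 7.63 (7.15 to 8.19), a difference of 2.78 ± 0.12. With Robo4 (2.58) and Rgcc (2.45) they were the 5 called higher of 27 endothelial and endocardial genes, whose median, 0.84, was the highest of the lists. General endothelial markers were not called, with Pecam1 at 0.42 and Cdh5 at 0.65. Npr3, the natriuretic peptide clearance receptor of the endocardium, was the 1 called lower (−2.08 ± 0.19); it was not called without array 3 of E17.5 or of E19.5 (−2.0 and −1.94) or under either scaling.

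Genes of the cells around vessels were called in both directions, and epicardial genes lower. Rgs5, a pericyte marker, rose from a median of 6.70 (5.41 to 7.61) to 9.65 (9.05 to 9.86), a difference of 3.13 ± 0.12, and Myh11, the myosin of mature smooth muscle, from 3.27 (2.85 to 3.51) to 5.81 (5.22 to 6.90), a difference of 2.76 ± 0.13, whereas Cnn1, the smooth muscle calponin that early heart muscle also makes, fell from a median of 7.79 (7.27 to 7.92) to 5.27 (4.42 to 6.06), a difference of −2.46 ± 0.17. In the mural list of 11 genes 2 were called in each direction (median 0.30); the other decrease was Tagln, transgelin (−2.27), which fell just short of the limit after centring (−2.0) and was not called without E10.5 (−1.91). Of 14 epicardial genes 2 were called lower and 0 higher (median −0.91): Krt8, a keratin of epithelial layers, fell from a median of 7.28 (6.27 to 8.22) to 4.33 (4.08 to 5.00), a difference of −2.72 ± 0.12, and Upk3b, a mesothelial marker, from 6.44 (6.04 to 7.23) to 4.25 (3.79 to 5.03), a difference of −2.14 ± 0.17. Neither overlapped between groups, and Upk3b was not called after centring (−1.87). Bnc1, a zinc finger protein of mesothelium and germ cells that was not on that list, fell from a median of 6.11 (5.44 to 6.45) to 2.72 (2.51 to 3.05), a difference of −3.27 ± 0.12. Msln, mesothelin, stood on the other side at 1.20 without being called.

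Lists of markers of immune cells, nerves and other tissues held single called genes or none. Of 25 macrophage and leukocyte genes 12 passed the limit on level and 1 was called, F13a1, a coagulation factor subunit of resident macrophages. It rose from a median of 4.58 (3.16 to 5.99) to 7.47 (7.16 to 7.94), a difference of 2.86 ± 0.10. The mean over its list ranged from 3.78 to 4.37 early and from 4.60 to 4.89 late, without overlap. With an adjusted p under 0.05, 20 of the 25 were higher and 1 lower, beside 8855 and 5778 of all 20701 genes. Of 18 neural and glial genes 1 was called, Nefl, the light neurofilament chain, which fell from a median of 5.00 (4.08 to 5.73) to 2.74 (2.29 to 3.43), a difference of −2.10 ± 0.09, and was not called after centring, without E10.5 or without E19.5 (−1.83, −1.81 and −1.97). No gene was called among 13 lymphocyte and thymus, 14 antigen presentation, 11 complement, 5 lung and 11 skeletal muscle genes; their medians were 0.39, 0.45, 0.38, 0.48 and 0.19, beside 0.25 over all genes below the limit on level. Of 18 autonomic, angiotensin, endothelin and natriuretic genes, Npr3 was the 1 called (median 0.43). Antioxidants and metallothioneins (22 genes) and splicing regulators (18 genes) had 0 called, with medians of 0.21 and −0.09 (the latter 0.17 and 0.18 under the other scalings). Among 5 Y-linked and X-inactivation genes, which move with the sex composition of the arrays, 0 were called, and the mean over the list ranged from 6.20 to 6.67 early and from 4.02 to 6.08 late.

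Stress and clock genes held single large changes. Hspb6, a small heat shock protein of muscle, rose from a median of 5.19 (3.64 to 5.91) to 8.35 (7.26 to 8.61), a difference of 3.16 ± 0.16, opposite to its list of 11 (median −0.79), in which Hsph1, a co-chaperone of Hsp70, was called lower (−2.03 ± 0.16); the latter was not called in 4 of 18 fits that left out 1 array (−2.0 to −1.86) or under either scaling. Npas2, a partner of the clock, rose from a median of 2.96 (2.57 to 3.26) to 5.91 (5.41 to 6.65), a difference of 3.01 ± 0.09, and Hlf, a clock output factor, from a median of 4.25 (3.85 to 4.96) to 6.60 (6.32 to 7.07), a difference of 2.30 ± 0.11; of 15 clock genes these 2 were called. Immediate early genes, which respond to handling and stress within minutes, had a median of −1.11 (12 genes), but the mean over the list ranged from 6.48 to 8.08 on early and from 5.92 to 7.25 on late arrays, and 0 of 12 were separated. Fosb, an AP-1 subunit, was the 1 called (−2.51 ± 0.34); it had a median of 5.78 (4.02 to 6.85) and of 2.94 (2.32 to 4.73), which overlap, and was not called in 14 of 18 fits that left out 1 array. Fos averaged 10.98 ± 1.00 early and 8.28 ± 1.28 late (SD, n = 9) and was not called.

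Other genes at the ends of the ranking belonged to no list. Carns1, which makes the muscle dipeptide carnosine, rose 23.9-fold from a median of 5.24 (4.51 to 5.91) to 9.64 (9.32 to 10.37), a difference of 4.58 ± 0.16. Aoc3, a vascular amine oxidase, rose from a median of 3.65 (3.23 to 4.19) to 7.97 (7.56 to 8.24), a difference of 4.20 ± 0.10. Btnl9 (butyrophilin-like) rose from a median of 3.71 (3.20 to 4.82) to 8.55 (8.14 to 9.15), a difference of 4.81 ± 0.14. The transcript 4632404M16Rik rose from 4.38 (3.65 to 5.26) to 8.68 (8.11 to 9.08), a difference of 4.24 ± 0.13. The study describes it as a long non-coding RNA in an intron of Casq2. Among the decreases, Stk26, a kinase of the germinal center family, fell from a median of 8.45 (8.04 to 8.80) to 5.06 (4.51 to 5.47), a difference of −3.41 ± 0.10, and Adgrg6, an adhesion receptor needed for heart and nerve development, from 7.49 (7.0 to 7.75) to 3.99 (2.86 to 4.75), a difference of −3.37 ± 0.20. Hs6st2, which adds sulfate to heparan sulfate chains, fell from a median of 7.81 (7.36 to 8.49) to 4.66 (4.10 to 5.13), a difference of −3.33 ± 0.12 (1 of 4 probe sets had the opposite sign). These 7 were named by a rule that asked for groups without overlap, so their separation is not a result.

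Arrays of the stages outside the comparison filled in the time between. For each called gene the mean of a stage was placed on a scale on which the early mean is 0% and the late mean 100%. Genes called higher had covered a median of 34.3% by E13.5, 56.3% by E14.5, 70.5% by E15.5 and 83.1% by E16.5 (128 genes), and genes called lower 38.1%, 54.9%, 76.6% and 77.4% (146 genes). The medians of both sets increased at each step. In young adult hearts the medians were 128% and 111%; 23 of the 128 genes stood more than 4-fold above their late mean there and 5 more than 4-fold below it. Mb, for example, averaged 12.62 in young adults and Ckmt2 11.31, whereas Npas2 averaged 3.20 and Col1a1 6.70, below their late means of 5.95 and 10.22.

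**Figure D5:**
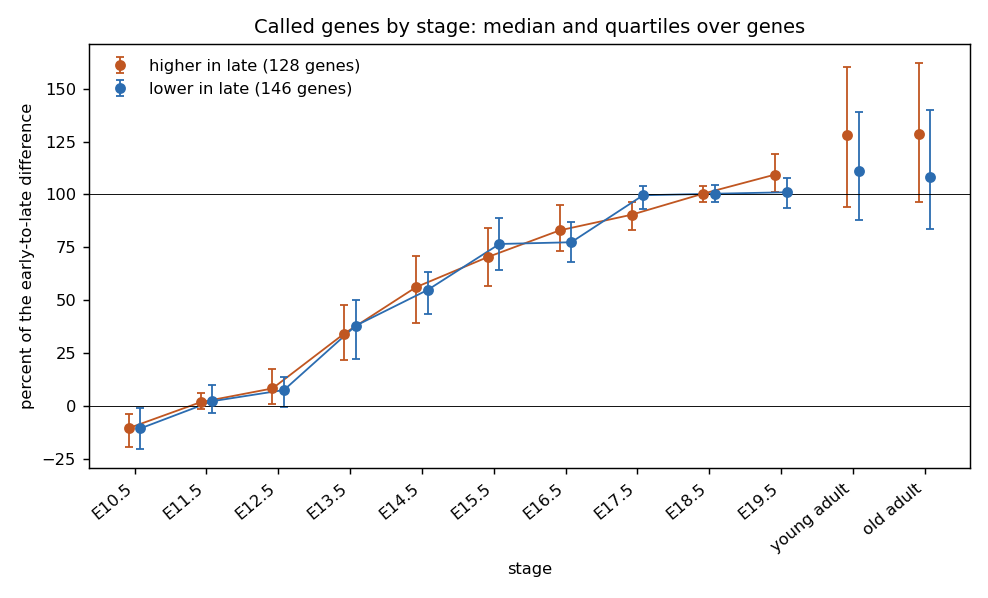
Position of each stage between the early mean (0%) and the late mean (100%) for the 128 genes called higher (orange) and the 146 called lower (blue); points are medians and bars quartiles over genes. Both sets cross the middle of the scale near E14.5, and the 3 stages of each group define the ends.

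Within each group few genes differed by these limits. From E10.5 to E12.5, 18 genes were called higher (0.087%) and 3 lower (0.0145%) by the same limits (limma, 6 stages in the fit). In that contrast 823 genes had an adjusted p and 3290 an unadjusted p under 0.05. The largest rises included several matrix genes: Sfrp2, a secreted Wnt binder, rose by 5.55 ± 0.44, Fbln5, an elastic fibre protein, by 5.43 ± 0.31, Eln by 4.11 ± 0.31, Iigp1, an interferon-inducible GTPase, by 3.79 ± 0.25, Mgp by 3.77 ± 0.28 and Ogn by 3.75 ± 0.27. The macrophage receptor Csf1r (2.38 ± 0.16) and F13a1 (2.59 ± 0.17) rose with them, and Hemgn fell (−4.91 ± 0.33). From E17.5 to E19.5, 2 genes were called higher (0.00966%) and 0 lower, while 906 genes had an adjusted p and 3863 an unadjusted p under 0.05. The 2 were Angptl4, an inhibitor of lipoprotein lipase (3.00 ± 0.14), and Plin5, a lipid droplet protein of oxidative tissue (2.81 ± 0.16). Of the 274 genes called between early and late hearts, 223 differed in the same direction from E10.5 to E12.5 and 182 from E17.5 to E19.5; these stages also enter the comparison that chose the genes, so the shares are a description.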

How the data were processed

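Hearts were profiled on Affymetrix Mouse430_2 arrays. The authors processed the scans with RMA (background correction, quantile normalization and summary by probe set) and deposited log2 values, 1 column for each of 36 arrays, with 0 columns left unused; the submitters' processing notes name Affymetrix Expression Console and Partek 6.6. The 45101 probe sets were used as deposited. The 6937 without a single gene ID entered the test but no gene count. Of 20701 gene IDs 18342 were named through RefSeq (GRCm38.p6), and the others keep the file's name. Arrays give no count of depth, so their number limits the precision.

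The 6 stage means, 3 arrays each, were fitted with limma 3.58.1 in R 4.3.3 (lmFit, contrasts.fit, eBayes), and p-values were adjusted by Benjamini-Hochberg over all probe sets; every adjusted p in the text comes from this test. The limit on level was applied after it. A gene was read from its probe set with the highest mean over the 18 arrays. On simulated data with 200 changed probe sets, 149 of 150 above the limit were recovered, 0 of 50 below it were called and 0 unchanged ones were called. Named by rule were the 12 highest and the 12 lowest called genes whose groups did not overlap, up to 3 called members of each list with the largest differences and the called member furthest against the list's median, and a panel of heart genes; a few of these genes are not reported here. The 45 gene lists, the panel, the motifs and the comparison itself were chosen with earlier results of these data known. Promoters came from RefSeq. Alternatives covered the fit, sex label and hybridization control level as covariates, scaling, the limits, other probe sets, and each array or stage left out. Samples were grouped by the stage in their labels.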

Additional observations from a re-analysis of the deposited data

Results flagged for a closer look

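In the groups of 9 arrays, 11 of 160 tested (6.88%) had an array whose gap to its nearest neighbour was large against the group's range by Dixon's criterion. That criterion flags about 5% by chance for values from 1 population. As each group pools 3 stages, the chance share here is not known. Array 3 of E17.5 was the outlying one for 4 genes: it was lowest of the late arrays for Cox7a1 (8.64, group median 10.51), Cox8b (8.30, group median 10.27) and Dpt (8.60, group median 9.77), and highest for Hemgn (3.03, group median 2.22). Array 3 of E19.5 was lowest of the late arrays for Hsph1 (4.86, group median 6.23) and Myh7 (12.89, group median 13.53). Array 1 of E10.5 was lowest of the early arrays for Hbb-y (13.39, group median 13.76) and highest for Igf2bp1 (8.45, group median 7.66). Single early arrays also stood apart for Cd36 (array 3 of E10.5, 4.94, group median 6.02), Cnn1 (array 2 of E11.5, 7.27, group median 7.79) and Myom2 (array 3 of E11.5, 5.70, group median 3.29).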

How the results depend on the processing

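Of the 358 genes called (137 higher, 221 lower), leaving out 1 array gave 333 to 398 (134 to 143 higher, 195 to 262 lower), and 14 to 22 from E10.5 to E12.5 and 2 to 3 from E17.5 to E19.5. With 9 against 9 arrays 350 were called, with stage as a random block 347, with all 36 arrays 358 and with no limit on level 361. Limma on the 6 stage means called 2 (1 higher, 1 lower), although 356 of the 358 had an adjusted p under 0.05 there; the p limit and the fewer values end the calls. Lower calls numbered 362 with sex label as a covariate, 113 after median centring, 147 without E10.5 and E19.5, and 146 with 1 probe set a gene. The hybridization control level as a covariate gave 224 (80 lower), a log2 limit of 1 gave 2382 (602 higher, 1783 lower), and an adjusted p under 0.05 alone 16463 (11143 higher, 6974 lower). From E10.5 to E12.5 median centring gave 33 calls, and from E17.5 to E19.5 all 36 arrays gave 4. Of 69 called genes under the naming rule, 50 kept the call with the hybridization control covariate. Those that lost it were Sox11, Id2, Mcm6, Fosb, Cnn1, Mcm3, Myl7, Sfrp1, Mycn, Slc2a3, Upk3b, Pcna, Npr3, Pgam1, Hsph1, Cdk4, Cox7a1, Cacna1g and Hlf. Among other list members Col1a1, Col9a1, Fbln1, Fn1, Prrx2, Rgcc and Tagln lost theirs. For Cox7a1 (3.09), Fosb (−3.70), Rgcc (2.49) and Upk3b (−2.15) the call was lost although the difference did not shrink. The cause was not tested. Other probe sets had the opposite sign for Hs6st2 (0.091), Slc4a1 (0.16), Mcm3 (0.067), Mycn (0.026 and 0.46), Slc2a3 (0.21 and 0.24) and Top2a (0.33). Another 42 probe sets of 30 named genes kept the sign but not the call, among them Apela (−0.16), Myom2 (0.24), Mb (0.20), Kcnip2 (0.43 and 0.30) and Gata5 (−0.70), while 37 gave the same call, so that many calls rest on the probe set chosen. With the hybridization control covariate Nppa turned to 0.28 and Tnni1 to 0.30, Igf2bp1 to 0.077 by quantile renormalization and 0.019 by centring, and Myh7 to −0.039 with sex label and −0.012 without E17.5. No paired analysis was possible because each stage used different embryos, and the running numbers in the array titles are not shared between early and late arrays.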
